A study of Mus musculus with 16 samples.

Results

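The knockout effect on RNA abundance was compared between the lungs and the heart of the same mice. For every mouse the heart level was subtracted from the lungs level, and these within-mouse differences were compared between NM1 knock-out (KO) and wild-type (WT) mice. The result, called the organ difference here, is on the log2 scale. A positive organ difference means that the KO effect was more positive, or less negative, in lungs than in heart. Of 45037 probe sets on the array, 20365 had a mean above the table median of 3.79 log2 in both organs and were compared. They held 14759 probe sets with exactly 1 gene, for 9626 genes. Another 2848 probe sets were above the median only in lungs and 1730 only in heart, and they were not compared.

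The KO mice were 1602, 1603 and 1586 and the WT mice were 1592, 1624 and 1593, each with 1 lungs array and 1 heart array. The series holds 16 Affymetrix arrays in all, and the 4 others are skin fibroblasts, with 2 samples per genotype, from mice with other numbers. The labels describe the mice only as NM1 knock-out or wild type. Not given in the sources used here are age, sex, strain, the deleted part of the gene, whether it was absent from all cells, and whether whole organs were taken. Values of mice are always listed below in the order 1602, 1603 and 1586 for KO and 1592, 1624 and 1593 for WT.

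Nuclear myosin 1 (NM1) is a form of the motor protein myosin 1c, made from the gene Myo1c, that carries a short extra stretch at its start and works in the cell nucleus. It binds actin, associates with RNA polymerase I at ribosomal RNA genes, and acts with the chromatin remodeller that contains SNF2h. Lungs are rich in epithelium, endothelium and fibroblasts, and the heart is dominated by muscle cells packed with mitochondria. According to the design text, both organs were chosen for their strong NM1 expression.

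In lungs, Sftpc (a surfactant protein) ranged between 13.9 and 14.1 log2, compared with 3.41 to 6.22 in hearts. Ager, found in the flat cells of the alveoli, ranged between 13.2 and 13.7 in lungs and between 3.11 and 4.15 in hearts. Myl2, the ventricular myosin light chain, lay between 3.19 and 4.14 in lungs and between 13.8 and 14 in hearts. Each array thus carried these markers of its labelled organ, but other markers were also found across organs. Tnnt2, a part of the sarcomere, ranged between 5.45 and 10.7 in lungs. Scgb1a1, an airway marker, read 3.50, 8.05 and 6.49 in KO hearts and 3.53, 4.18 and 5.06 in WT hearts. The part of such transcripts in lungs minus heart was not tested. The KO heart of mouse 1602 stood apart: the upper quartile of all its values was 5.63 log2, while the other KO hearts had 6.21 and 6.18 and the WT hearts 6.24 to 6.31. The median of lungs minus heart over the compared probe sets was 0.60, 0.13 and 0.09 in KO mice and 0.15, 0.14 and 0.12 in WT mice. Mouse 1602 was thus the only mouse whose lungs array was shifted above its heart array by more than 0.15. Medians of gene groups are therefore given as deposited, after quantile normalization between arrays, and without mouse 1602, and after centring where the sign turned.

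No probe set passed the test for a different KO effect in lungs and heart. With limma and Benjamini-Hochberg adjustment, 0 of 20365 probe sets (0%) were called, and the smallest adjusted p was 0.714. At an unadjusted p under 0.05 there were 1375 probe sets (6.75%), against 1018 that chance gives, 1246 with a positive organ difference (6.12%) and 129 with a negative one (0.633%). In 1938 probe sets (9.52%) lungs minus heart was higher in all KO mice than in all WT mice, and in 514 (2.52%) it was lower. The values leaned to the positive side. As deposited, 64.5% of probe sets were above 0, with 51.8% after quantile normalization, 38% after centring each array on the median of the compared probe sets, and 46.0% without mouse 1602. Over genes, with 1 probe set each, 61.7% were above and 38.3% below 0. Their median organ difference was 0.09 as deposited, -0.01 after quantile normalization, -0.14 after centring and -0.06 without mouse 1602. Tested on simulated data, the same fit recovered 44% of organ differences of 2 on the log2 scale and 1% of those of 1. Organ differences of 1 were thus mostly not detectable with 3 mice per genotype. Single mice weighed heavily: of 119 probe sets named here or leading a gene group, 80 had an organ difference that shrank by over 1.5 times or changed sign without 1 of the mice.

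The spread of lungs minus heart over the probe sets, a measure of how unlike the organs of 1 mouse are, had an SD of 1.63, 1.31 and 1.43 in KO mice and 1.28, 1.38 and 1.30 in WT mice. The genotypes overlapped. The KO spread was higher by 0.14, and the exact permutation test (two-sided) gave p = 0.2, where 3 against 3 mice cannot go below 0.1.

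A second fit gave the KO effect in each organ. In lungs 3 probe sets were called at an adjusted p under 0.05 (0.0147%), 1 higher (0.00491%) and 2 lower in KO (0.00982%). In heart 7 were called (0.0344%), all lower in KO. The direction in heart turned with the scaling: of 3 heart calls after quantile normalization 2 were higher in KO, and of 6 after centring 2 were higher. Of the 7 heart calls, 4 were kept after centring but only probe set 1434914_PM_at after quantile normalization, on the 12 arrays of lungs and heart alone, without mouse 1602 or without mouse 1592. The counts also moved with other single mice, as given in the closing section. In 64 probe sets (0.314%) all KO lungs were above and all KO hearts below WT, and in 15 (0.0737%) it was the other way round.

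**Figure D1:**
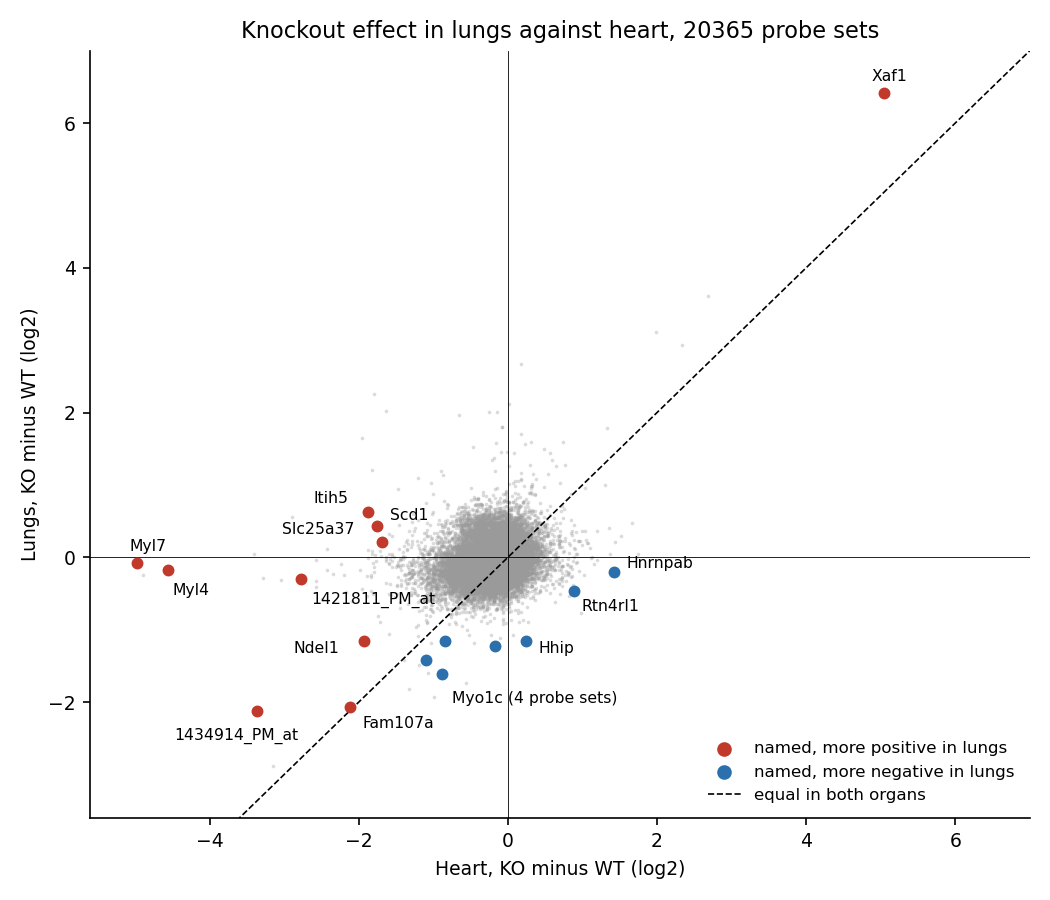
Each grey point is 1 of 20365 probe sets, with its KO minus WT difference in heart on the x axis and in lungs on the y axis (both log2). Points above the dashed line have a more positive KO effect in lungs; Xaf1 lies far from all others at 6.41 in lungs and 5.04 in heart, and Myl7 and Myl4 lie far to the left, near 0 in lungs.

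Myo1c itself was lower in KO in both organs. The mean of its 4 probe sets was 7.09, 6.55 and 6.31 in KO lungs, against 7.55, 8.10 and 8.35 in WT lungs, on the log2 scale. In heart it was 6.00, 5.98 and 5.92 in KO, against 6.73, 6.83 and 6.60 in WT. KO and WT did not overlap in either organ, and the exact permutation p was 0.1 in each, the smallest possible. No Myo1c probe set was called in the second fit. The limma adjusted p of the 4 probe sets lay between 0.0763 and 0.326 in lungs and between 0.11 and 0.764 in heart. Lungs minus heart was 1.09, 0.56 and 0.38 in KO mice and 0.83, 1.27 and 1.75 in WT mice, which overlapped. The organ difference was -0.60, with an exact permutation p of 0.2. The difference was thus within the spread between mice.

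The 4 Myo1c probe sets did not behave alike. Probe sets 1419648_PM_at, 1419649_PM_s_at and 1449551_PM_at had organ differences of -0.32, -0.31 and -0.72 and overlapped between genotypes. The fourth, 1449550_PM_at, had lungs levels of 5.78, 5.01 and 5.33 in KO and 6.19, 6.70 and 6.90 in WT. Its heart levels were 5.72, 5.23 and 4.80 in KO and 5.39, 5.49 and 5.39 in WT. It was thus below WT in all KO lungs, while the hearts overlapped, and its organ difference was -1.06 (SE 0.29, unadjusted p = 0.0067, adjusted p = 0.714 with limma). The annotation does not say which transcripts of Myo1c each probe set reads.

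Fam107a, an actin-bundling protein induced by stress hormones, was called lower in KO in both organs. Probe set 1434202_PM_a_at had log2 levels of 5.70, 6.17 and 5.83 in KO lungs, against 7.60, 7.59 and 8.73 in WT lungs. It read 4.54, 4.77 and 4.37 in KO hearts and 6.63, 6.47 and 6.93 in WT hearts. All KO values lay below all WT values of the same organ. Fam107a fell in lungs by 2.07 on the log2 scale (limma adjusted p = 0.0141) and in heart by 2.12 (limma adjusted p = 0.0144), a drop of 4.21-fold and 4.34-fold. After quantile normalization the limma adjusted p was 0.0665 in lungs and 0.142 in heart. Its organ difference was 0.04 (SE 0.28) with a 95% interval from -0.59 to 0.68, and its sign turned to -0.30 after quantile normalization and -0.18 after centring. The second Fam107a probe set was lower by 1.49 in lungs and 1.19 in heart.

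Xaf1, an interferon-inducible protein that binds the apoptosis inhibitor XIAP, had the largest KO effect among the compared probe sets in each organ. Probe set 1443621_PM_at read 9.77, 9.53 and 9.25 in KO lungs and 2.81, 3.10 and 3.41 in WT lungs. It read 8.39, 8.64 and 8.29 in KO hearts and 3.50, 3.58 and 3.11 in WT hearts. Both WT groups averaged below the filter value, so the probe set was compared only because of its KO level. It rose in lungs by 6.41 (limma adjusted p = 0.0141), and its heart difference of 5.04 had an adjusted p of 0.0564. Lungs minus heart averaged 1.08 ± 0.268 in KO and -0.29 ± 0.519 in WT (SD, n = 3 each), giving an organ difference of 1.37 (SE 0.31, unadjusted p = 0.00224, adjusted p = 0.714 with limma). A second Xaf1 probe set, 1443698_PM_at, went the other way, lower in KO by 1.19 in lungs and 1.03 in heart, with an organ difference of -0.16.

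Further probe sets fell in heart with a smaller or no lungs difference. Fundc1, a mitochondrial outer membrane protein that takes part in the removal of damaged mitochondria, read 4.46, 4.37 and 4.64 in KO hearts and 5.35, 5.54 and 5.33 in WT hearts at probe set 1436278_PM_at. In lungs it read 4.55, 4.48 and 4.49 in KO and 4.50, 4.67 and 4.56 in WT. The genotypes were apart in heart and mixed in lungs. Fundc1 fell in heart by 0.92 (limma adjusted p = 0.0443), against -0.07 in lungs, with an organ difference of 0.85 (SE 0.21, unadjusted p = 0.00353). After quantile normalization the heart difference was -0.70, with a limma adjusted p of 0.159. The other 2 Fundc1 probe sets had organ differences of -0.04 and 0.18.

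Pcnx3, a membrane protein of the pecanex family, read 4.81, 5.37 and 5.04 in KO hearts and 6.00, 6.18 and 5.91 in WT hearts. In lungs it read 7.02, 6.89 and 6.76 in KO and 6.89, 6.91 and 6.76 in WT. It fell in heart by 0.96 (limma adjusted p = 0.0443), against 0.04 in lungs, which gave an organ difference of 0.99 (SE 0.25, unadjusted p = 0.00387).

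Ndel1, a partner of dynein and Lis1 in nuclear and neuronal transport, was below WT in every KO sample of both organs. Probe set 1424893_PM_at read 5.76, 5.78 and 5.84 in KO lungs and 7.32, 6.66 and 6.86 in WT lungs. It read 3.94, 4.97 and 5.10 in KO hearts and 6.67, 6.58 and 6.55 in WT hearts. Ndel1 fell in heart by 1.93 (limma adjusted p = 0.0443), and its lungs difference was -1.15. The organ difference was 0.78 (SE 0.34, unadjusted p = 0.050), and 0.43 without mouse 1602. The other Ndel1 probe set had an organ difference of 0.05.

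Of the called probe sets, 1434914_PM_at, 1421811_PM_at and 1435702_PM_s_at have no single gene in the annotation. Probe set 1434914_PM_at fell in lungs by 2.12 (limma adjusted p = 0.0141) and in heart by 3.36 (limma adjusted p = 0.000102), and its organ difference was 1.24 (SE 0.29). It read 3.03, 3.20 and 3.32 in KO hearts, below the filter value, against 6.32, 6.67 and 6.62 in WT hearts. Probe set 1421811_PM_at fell in heart by 2.78 (limma adjusted p = 0.0326), against -0.30 in lungs. It read 3.84, 3.95 and 3.30 in KO hearts and 6.53, 5.38 and 7.51 in WT hearts, so that the KO mean of 3.70 was below the filter value and the probe set was compared only because of its WT level. Its lungs minus heart was 4.77, 5.14 and 5.23 in KO mice and 2.70, 3.55 and 1.45 in WT mice, for an organ difference of 2.48. Probe set 1435702_PM_s_at fell in heart by 1.15 (limma adjusted p = 0.0443), with an organ difference of 0.80. In all of these the KO effect was more negative in heart.

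Slc25a37, mitoferrin 1, the importer that brings iron into mitochondria for heme synthesis, had the smallest unadjusted p among named genes. Probe set 1417750_PM_a_at read 7.46, 7.04 and 7.44 in KO lungs and 7.07, 7.07 and 7.19 in WT lungs. It read 5.04, 5.41 and 6.09 in KO hearts and 7.17, 6.72 and 7.73 in WT hearts. KO hearts were all below WT hearts, and the lungs were mixed. Lungs minus heart averaged 1.80 ± 0.561 in KO and -0.10 ± 0.450 in WT (SD, n = 3 each). The organ difference was 1.90 (SE 0.35, unadjusted p = 0.000667, adjusted p = 0.714 with limma). The other 2 Slc25a37 probe sets had organ differences of 0.23 and 0.42, without separation of the genotypes. Alas2, the erythroid enzyme that starts heme synthesis, had an organ difference of 1.96 with overlap, and 1.02 without mouse 1592. All 4 compared erythrocyte genes were above 0, with a median of 0.72 (0.59 after quantile normalization, 0.40 without mouse 1602), and their KO effect had a median of -0.14 in lungs and -0.88 in heart. The part of these erythroid genes in the Slc25a37 value was not tested.

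**Figure D2:**
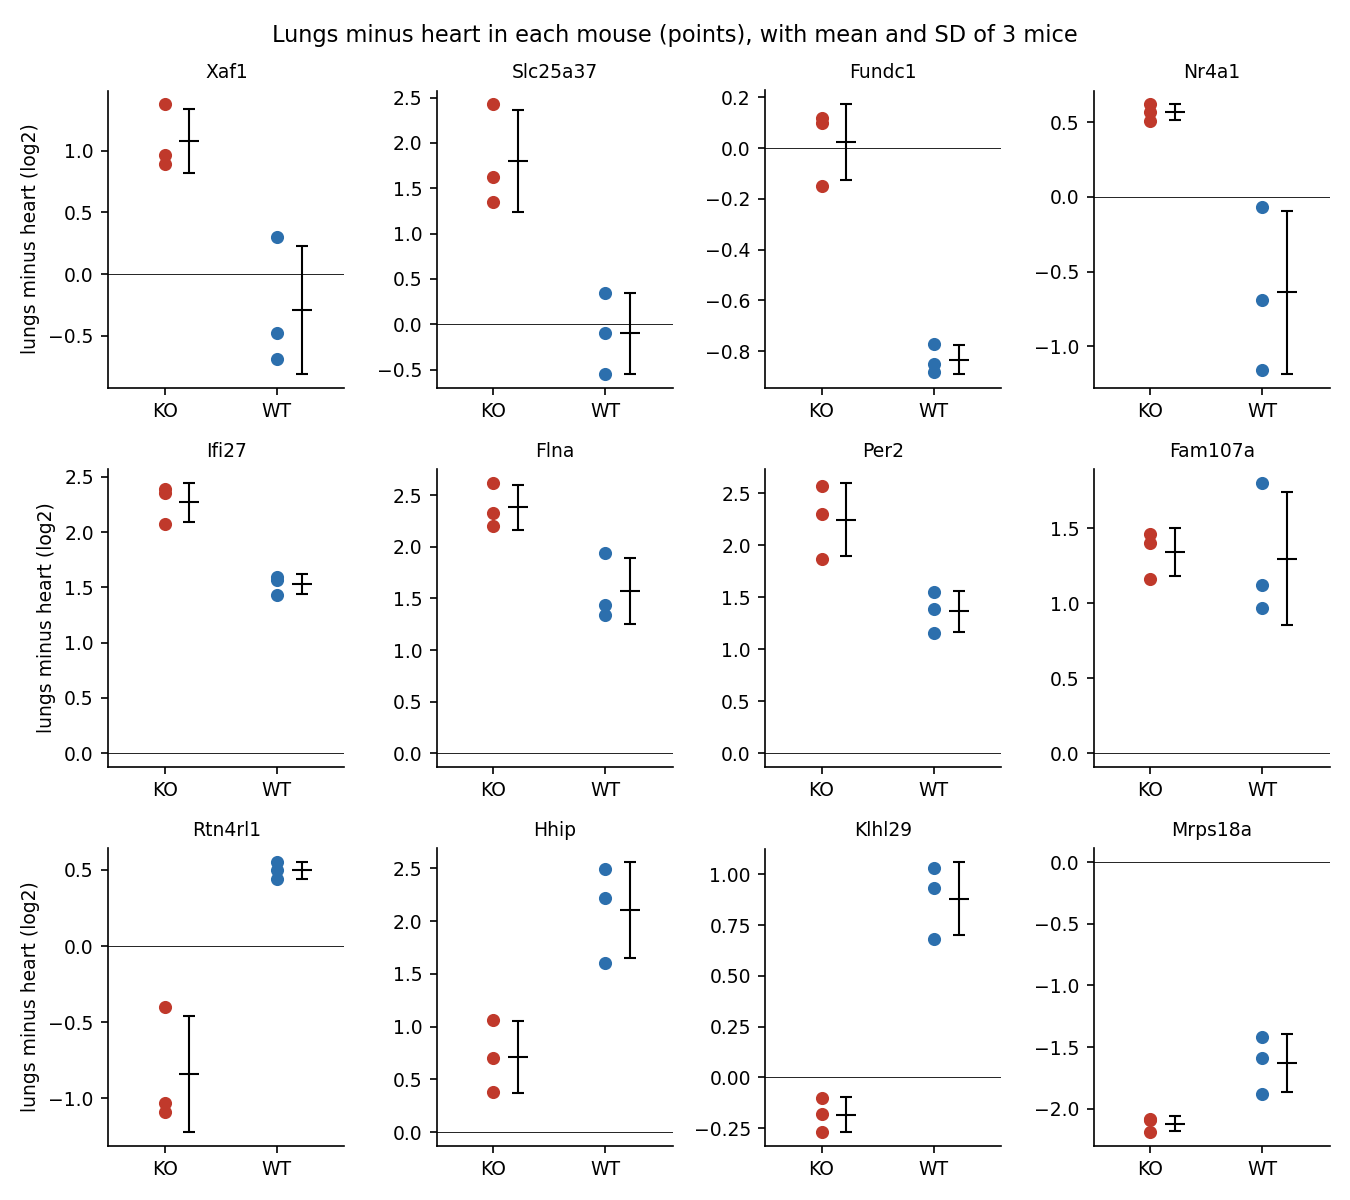
Points give lungs minus heart (log2) in each of 3 KO mice, on the left, and 3 WT mice, on the right, for 12 genes, and bars give the mean and SD. KO and WT mice were apart in 11 of the panels and mixed for Fam107a, whose organ difference was 0.04. The genes were picked from those named in the text, so this count is not a result. Over all genes, KO mice were all above WT mice in 7.56% and all below in 3%.

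Genes of the mitochondrial ribosome leaned to negative organ differences, with a higher KO level in heart. These proteins build the ribosome that translates the few messages of mitochondrial DNA, all of which encode subunits of the respiratory chain or the ATP synthase. Of 67 compared members, 53 were below 0 and 14 above, with a median of -0.15, against 0.09 over all genes. In 16 members all KO mice lay below all WT mice, 23.9% of the group against 3% of all genes, and in 0 members they lay above, against 7.56% of all genes. No member passed the test, and none had an unadjusted p under 0.05. The group's KO effect had a median of 0.02 in lungs and 0.16 in heart, where all genes had -0.09 and -0.16. In heart 63 of 67 members were higher in KO, 26 of them without overlap, against 4.51% of all genes. This was not particular to the group. In heart 31 of 33 genes of respiratory complex I were higher in KO, 9 without overlap, and 30 of 34 of complexes II to V, 7 without overlap. Sarcomere and calcium handling genes had 19 of 24 higher, 6 without overlap. The KO effect of the respiratory groups had medians of 0.09 and 0.05 in heart, and of 0.20 in lungs for both.

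Mrps18a, a protein of the small subunit, had the most negative value in this group. It read 7.53, 7.73 and 7.45 in KO lungs and 7.57, 7.73 and 7.93 in WT lungs. In heart it read 9.61, 9.82 and 9.65 in KO and 9.45, 9.32 and 9.34 in WT. KO hearts were all above WT hearts, and the lungs overlapped. Its organ difference was -0.49 (SE 0.22, unadjusted p = 0.0572, adjusted p = 0.739 with limma). Mrpl19 and Mrpl40 of the large subunit had organ differences of -0.45 and -0.44, each with all KO mice below all WT mice. Mrpl49 had -0.41, with overlap.

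The mean of the 67 members, lungs minus heart, was -1.74, -1.70 and -1.82 in KO mice and -1.59, -1.72 and -1.54 in WT mice. WT mouse 1624 lay among the KO mice. After quantile normalization the median organ difference was -0.14, with 12 members (17.9%) below WT in all KO mice, against 6.68% of all genes. Without mouse 1602 the median was -0.14, with 24 members (35.8%) below, against 17.9% of all genes, and without mice 1603, 1586 and 1592 it was -0.12. Cytosolic ribosomal proteins, a group of similar size, had a median of -0.02 over 65 members (0.01 after quantile normalization, -0.06 without mouse 1602), with 2 below WT in all KO mice, 3.08% against 3% of all genes. Without mouse 1602 there were 20 (30.8%), against 17.9% of all genes. After centring there were 19 (29.2%), against 24 of the mitochondrial ribosome (35.8%) and 13.1% of all genes.

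**Figure D3:**
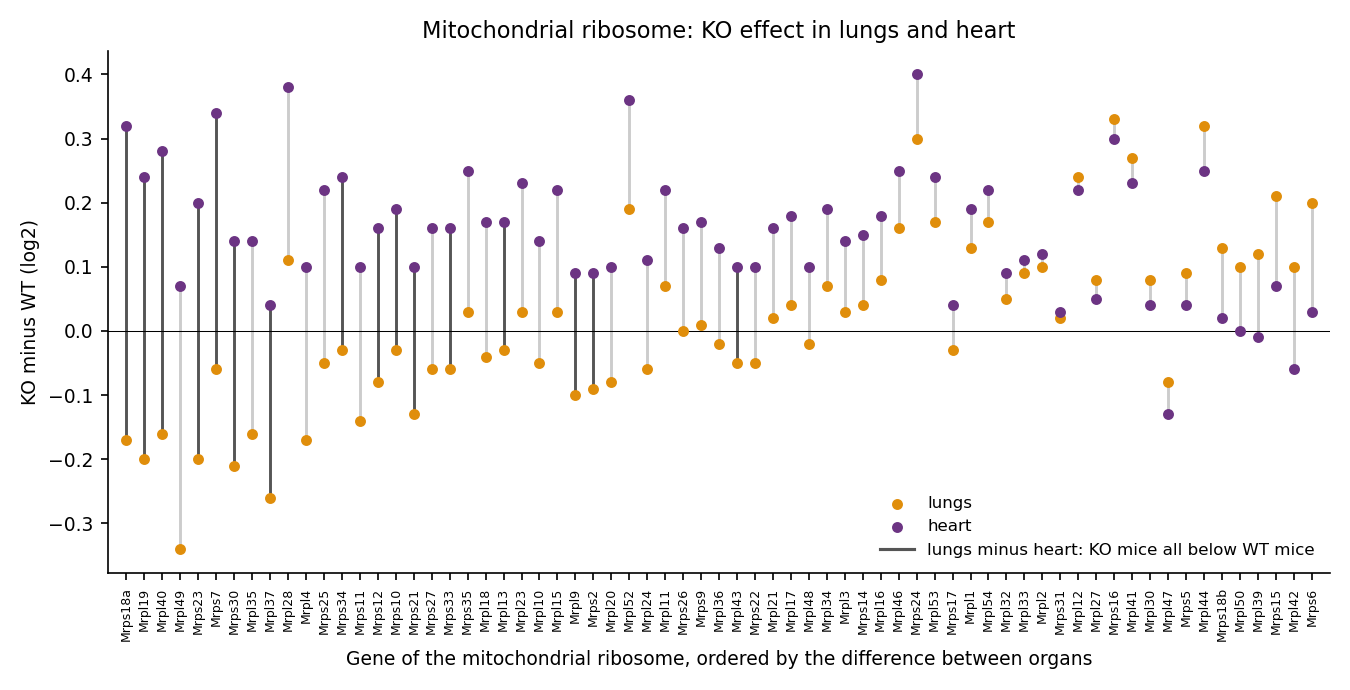
Each column is 1 of 67 genes of the mitochondrial ribosome, with KO minus WT (log2) in lungs and in heart as points and the gap between them as a line. Hearts are above 0 for 63 genes and lungs are spread around 0, and the dark lines mark the 16 genes in which lungs minus heart was lower in all KO mice than in all WT mice.

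Promoter sequences are shown for members of this group that were lower in all KO mice and hold a motif of the factors known to drive nuclear genes for mitochondria. The motifs searched on both strands were CCGGAAG for ETS factors, GCGCATGC for NRF1 and AAGATGGC for YY1. The window searched was the 250 bases before the annotated start in RefSeq (GRCm38.p6), and windows were at hand for 60 of the 67 members. The ETS motif was in 13 of these (21.7%), against 14.5% of 7820 compared genes and 7.05% of 27025 windows in all. Among members lower in all KO mice it was in 2 of 13 (15.4%), against 11 of 47 of the other members (23.4%). The NRF1 motif was in 11.7% of the members, against 4.9% of compared genes and 2.32% of all windows. The YY1 motif was in 6.67%, against 2.1% and 1.59%. A match is a description and not a binding site. The 120 bases before the start are printed 5′ to 3′ on the gene's strand, with the ETS or NRF1 motif in capitals (in Mrpl9 the NRF1 motif on both strands, overlapping), for Mrps18a (chr17:46110884-46111003, plus strand), Mrpl43 (chr19:45006443-45006562, minus strand) and Mrpl9 (chr3:94443216-94443335, plus strand). Mrpl43 and Mrpl9 were picked after their values were seen, and their organ differences were -0.15 and -0.19. Mrpl43 overlapped between genotypes after quantile normalization.
Mrps18a: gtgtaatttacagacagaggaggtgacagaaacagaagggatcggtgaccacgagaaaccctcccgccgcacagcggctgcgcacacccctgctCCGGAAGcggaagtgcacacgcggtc
Mrpl43: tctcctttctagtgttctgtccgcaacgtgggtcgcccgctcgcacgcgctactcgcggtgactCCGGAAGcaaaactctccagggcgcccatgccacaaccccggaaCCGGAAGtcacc
Mrpl9: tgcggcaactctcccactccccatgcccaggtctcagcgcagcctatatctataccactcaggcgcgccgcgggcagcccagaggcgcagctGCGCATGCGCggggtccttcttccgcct

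The genes of the respiratory chain and of fat oxidation had mostly positive values as deposited. Fat cell, heart muscle and airway transcripts in the lungs varied with them. Complex I, the entry point of electrons from NADH, had 28 of 33 members above 0 and a median of 0.11, near the 0.09 of all genes, of which 61.7% were above 0. Complexes II to V had 31 of 34 above 0 and a median of 0.15, and fatty acid oxidation had 18 of 24 and a median of 0.28. Only Atp5o of complex V had KO mice all above WT mice, with an organ difference of 0.28, so that the share of such members was 0%, 2.94% and 0%, below the 7.56% of all genes. After quantile normalization the medians were 0.18, 0.21 and 0.35, and Atp5o overlapped. After centring they were -0.11, -0.07 and 0.05, with 6 of 33 members of complex I above 0 (18.2%), against 33.8% of all genes. Without mouse 1602 they were 0.25, 0.30 and 0.59, and 51.5%, 64.7% and 66.7% of the members had the remaining KO mice all above WT mice, against 11.1% of all genes. The largest single values were 1.87 for Pdk4, the kinase that shuts glucose carbon out of mitochondria, and 0.99 for Cpt1b, the muscle gatekeeper of fatty acid import. Without mouse 1586 they were 0.83 and 0.26.

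Adiponectin (Adipoq), secreted by fat cells, read 2.73, 10.53 and 10.80 in KO lungs and 9.83, 3.99 and 3.45 in WT lungs. KO lungs 1603 and 1586 and WT lungs 1592 thus carried this fat cell transcript at a high level and the other 3 lungs did not. In hearts it read 2.96, 4.20 and 2.70 in KO and 4.72, 2.96 and 7.57 in WT, with WT heart 1593 the highest. Its organ difference was 4.06 with overlap, and 1.66 without mouse 1593. The mean of the 12 measured fat cell markers was 4.17, 7.91 and 8.26 in KO lungs and 6.95, 4.65 and 4.56 in WT lungs. All 8 compared fat cell markers had positive organ differences, with a median of 1.49, 1.58 after quantile normalization and 3.13 without mouse 1602. Among them, Adipoq averaged 3.288 in KO hearts, below the filter value, so that it was compared only because of its WT level in heart. The mean of 24 fatty acid oxidation genes was likewise highest in lungs 1603, 1586 and 1592. It read 7.63, 8.56 and 8.75 in KO lungs and 8.36, 7.78 and 7.78 in WT lungs. In hearts it lay between 11 and 11.1 in KO and between 10.9 and 11.1 in WT. Other transcripts were also highest in the same 3 lungs. The mean of 11 airway genes was 8.52, 11.6 and 11.2 in KO lungs and 11.9, 10.1 and 8.97 in WT lungs. Sarcomere and calcium handling genes, described below, were highest there too. Of the fat cell markers, Fabp4, Cox8b and Cox7a1 were also high in hearts. They averaged 12.36, 13.09 and 12.6 in KO hearts and 12.44, 12.92 and 12.55 in WT hearts. Without mice 1603, 1586 and 1592, the medians of the organ difference were -0.05 for complex I, -0.02 for complexes II to V and -0.16 for fatty acid oxidation, where all genes had 0.38. These mice were left out for their fat cell transcripts, and the only KO mouse remaining was 1602, with the shifted heart array. The part of the fat cell, heart muscle and airway transcripts in these values was not tested. In these bulk samples, fewer cells of a type and less RNA per cell cannot be told apart.

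Immediate early genes, which are switched on within minutes of a stimulus and of tissue handling, had 23 of 26 members above 0 and a median of 0.44. It was 0.35 after quantile normalization, 0.21 after centring and 0.27 without mouse 1602. In 4 members, Nr4a1, Btg2, Klf4 and Jund, all KO mice lay above all WT mice, 15.4% against 7.56% of all genes. Nr4a1 overlapped after quantile normalization, and Btg2 and Jund after centring. After centring 2 members lay above (7.69%) and 1 below (3.85%), against 3.71% and 13.1% of all genes. All 26 had a lower mean in KO hearts than in WT hearts, with a median of -0.58 against -0.16 over all genes, 5 of them without overlap, against 15.2% of all genes, and the lungs median was -0.13. No member passed the test.

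Nr4a1, an orphan nuclear receptor, read 7.05, 7.88 and 8.09 in KO lungs and 8.26, 7.24 and 7.91 in WT lungs. In heart it read 6.48, 7.26 and 7.58 in KO and 8.33, 7.93 and 9.06 in WT. KO hearts were all below WT hearts, and the lungs were mixed. Lungs minus heart averaged 0.57 ± 0.0589 in KO and -0.64 ± 0.546 in WT (SD, n = 3 each), an organ difference of 1.21 (SE 0.30, unadjusted p = 0.00373, adjusted p = 0.714 with limma). Its promoter is shown because cyclic AMP response elements are known to drive this gene. The 120 bases before the start (chr15:101266726-101266845, plus strand) hold the half-site TGACG on the opposite strand at both places in capitals.
Nr4a1: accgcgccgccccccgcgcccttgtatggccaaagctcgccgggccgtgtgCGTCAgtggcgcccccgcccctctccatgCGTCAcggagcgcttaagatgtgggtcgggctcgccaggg

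The half-site, searched on both strands, was in 11 of 22 immediate early promoters (50%), against 28.1% of compared genes and 17.9% of all windows. Btg2, Klf4 and Jund, the other members with the genotypes apart, held no half-site in the 120 bases before the start. Egr1 and Fos had larger organ differences of 1.85 and 1.31, or 0.84 and 0.79 without mouse 1593, with wide spread among WT hearts. Egr1, a zinc finger factor, read 6.48, 6.99 and 6.88 in KO hearts and 7.76, 6.82 and 10.44 in WT hearts, so that WT heart 1593 was far above the rest. Fos, a part of the AP-1 factor, read 3.81, 5.08 and 5.07 in KO hearts and 6.87, 4.16 and 7.15 in WT hearts, where only 1624 lay among the KO hearts. Lungs minus heart overlapped between genotypes for both, as it did for Klf10, a TGF-beta-induced repressor, with 1.03 (0.54 without mouse 1602).

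Genes of the matrix leaned to positive organ differences, with lower KO levels in both organs and more so in heart. Of 18 collagens, 15 were above 0, with a median organ difference of 0.38, 0.31 after quantile normalization and 0.41 without mouse 1602. Of 41 matrix glycoproteins, proteoglycans and remodelling enzymes, 34 were above 0, with a median of 0.43, 0.29 and 0.27 in the same settings. Their KO effects had medians of -0.29 and -0.34 in lungs and -0.68 and -0.77 in heart. In 3 collagens and 2 other matrix genes all KO mice lay above all WT mice, 16.7% and 4.88%, against 7.56% of all genes.

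Fn1, fibronectin, read 8.89, 9.18 and 9.01 in KO lungs and 9.23, 9.56 and 9.89 in WT lungs. In heart it read 5.85, 7.43 and 6.21 in KO and 8.87, 7.72 and 8.56 in WT. KO lay below WT in every sample of both organs, and the gap was wider in heart. Lungs minus heart was 3.05, 1.75 and 2.79 in KO and 0.36, 1.83 and 1.33 in WT, which overlapped, and the organ difference was 1.36 (SE 0.46, unadjusted p = 0.0184). Col4a4, a basement membrane collagen, had 1.04, with all KO mice above all WT mice, and 0.59 without mouse 1602. Efemp1, Fmod and Postn, which are a fibulin, a small proteoglycan and periostin, had 1.56, 1.48 and 1.29, each with overlap. Without mouse 1602 Efemp1 had 0.84 and Postn 0.85.

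Fibroblast markers leaned the same way as the matrix genes. All 11 compared markers were above 0, with a median of 0.44, and 10 were so after quantile normalization, with a median of 0.35, or without mouse 1602, with 0.30. In none of the 11 were the genotypes apart. Pdgfra averaged 3.661 in KO hearts, below the filter value, so that it was compared only because of its WT level in heart. Meox1 had the highest value at 0.70 and Dcn, decorin, had 0.67, but these were 0.30 without mouse 1602 and 0.26 without mouse 1593. The part of the fibroblast markers in the matrix values was not tested.

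Transcripts typical of atrial muscle held the largest organ differences among genes with the genotypes apart. Myl7, the atrial regulatory light chain, read 8.02, 12.04 and 11.37 in KO lungs and 11.68, 10.15 and 9.84 in WT lungs. It read 4.08, 12.14 and 5.66 in KO hearts and 12.44, 11.14 and 13.23 in WT hearts. KO hearts 1602 and 1586 were thus far below every WT heart, while KO heart 1603 lay among the WT hearts. Lungs minus heart was 3.94, -0.10 and 5.70 in KO and -0.76, -0.99 and -3.40 in WT, without overlap, for an organ difference of 4.90 (SE 1.37, unadjusted p = 0.00714, adjusted p = 0.714 with limma). Myl4, the atrial essential light chain, had 4.39, and Nppa, atrial natriuretic peptide, had 3.61 with overlap (2.02 without mouse 1593). All 7 compared atrial genes were above 0, with a median of 2.99 as deposited. After quantile normalization 6 were so, with a median of 2.96, and without mouse 1602 the median was 2.45. In 4 of the 7 all KO mice lay above all WT mice, 57.1% against 7.56% of all genes. How much atrium each heart sample held is not stated in the labels, and its part in these values was not tested.

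Mesothelial genes, taken here as markers of the outer lining of heart and lungs, followed a like order in hearts. Their mean was 4.53, 6.4 and 4.56 in KO hearts and 7.32, 5.65 and 5.75 in WT hearts. KO hearts 1602 and 1586 were again the lowest. In lungs the mean was 8.78, 8.49 and 8.17 in KO and 9.08, 8.23 and 8.39 in WT. All 10 genes had positive organ differences, with a median of 0.79, and 0.72 after quantile normalization. The median was 0.42 without mouse 1602 and ran up to 1.44 with other mice left out. Lrrn4 and Upk3b led with 2.53 and 1.91, or 1.56 and 0.91 without mouse 1602, and none had the genotypes apart. Wt1 averaged 3.557 in KO hearts, below the filter value, so that it was compared only because of its WT level in heart. Cpe averaged 8.68 in KO and 8.74 in WT lungs, below its 10.58 and 10.95 in hearts. The part of other cells in the values of this list was not tested.

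Heart muscle transcripts also varied among the lungs samples. The mean of 26 sarcomere and calcium handling genes was 4.54, 7.66 and 6.91 in KO lungs and 7.41, 6.04 and 6.07 in WT lungs. Lungs 1603, 1586 and 1592 were the highest, as for the fat cell markers, and KO lungs 1602 the lowest. In hearts the mean was 11.9 in all KO mice and 11.8 in all WT mice. Of 24 compared genes 19 were below 0, with a median of -0.23 (-0.16 after quantile normalization), but the median turned to 0.88 without mouse 1602 and to 0.37 without mouse 1592. Tcap, Actc1, Tnnc1 and Tnnt2, parts of the sarcomere, had organ differences of -0.69, -0.61, -0.46 and -0.43. Their SEs lay between 1.01 and 1.26.

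**Figure D4:**
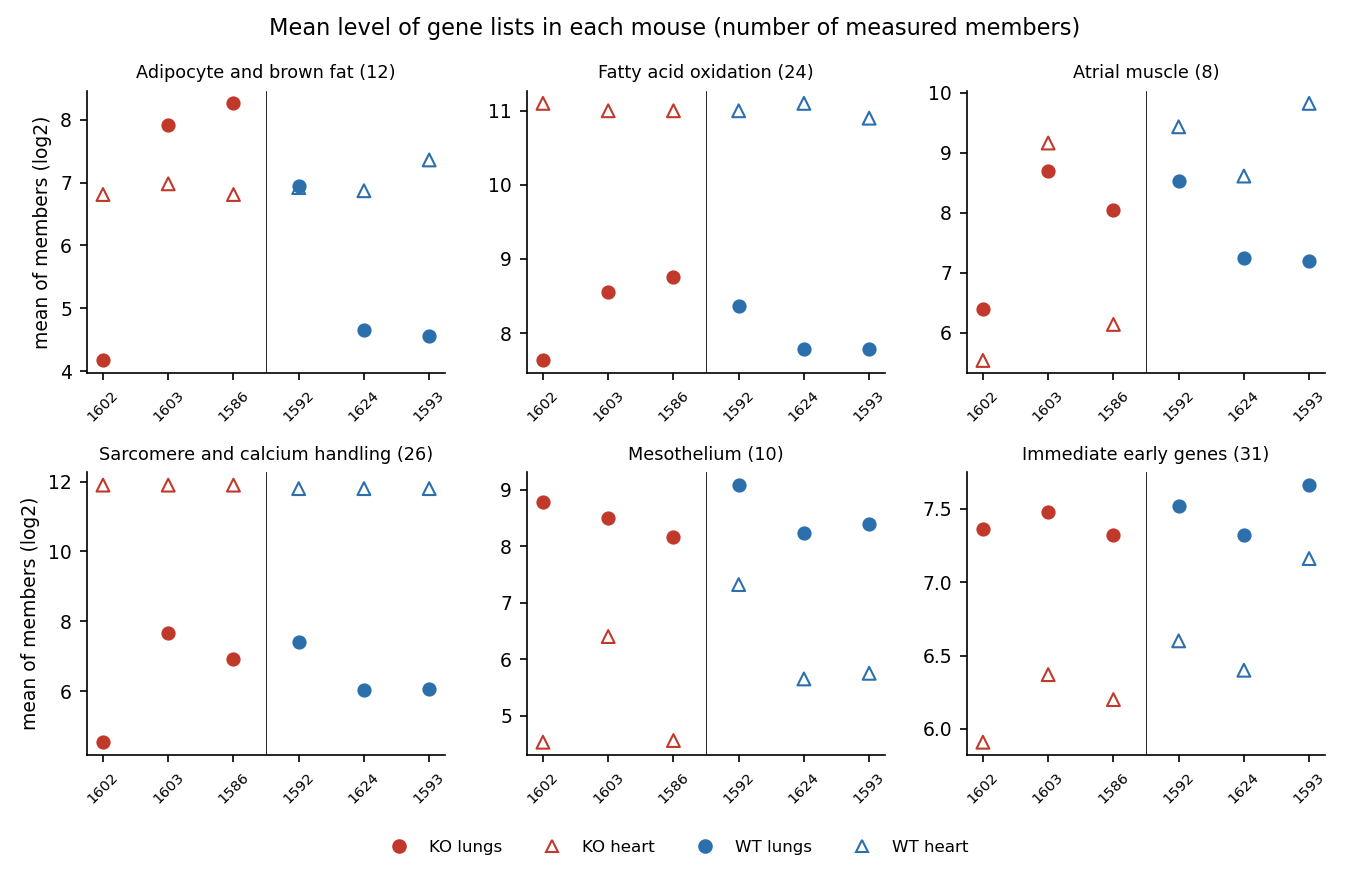
Each panel shows the mean log2 level of the measured members of a gene list in lungs (filled circles) and heart (open triangles) of each mouse, with the 3 KO mice left of the line and the 3 WT mice right of it. Fat cell, fatty acid oxidation and sarcomere genes are high in lungs of mice 1603, 1586 and 1592, and atrial and mesothelial genes are lowest in KO hearts 1602 and 1586.

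Interferon-stimulated genes, the antiviral programme to which Xaf1 belongs, had 27 of 31 members above 0 and a median of 0.17 as deposited. The median was 0.08 after quantile normalization, with 16 of 31 above 0, -0.05 after centring and -0.07 without mouse 1602. Ifi27 was the clearest member. It read 9.94, 10.20 and 10.12 in KO lungs and 9.62, 9.54 and 9.68 in WT lungs, and 7.55, 8.13 and 7.77 in KO hearts and 8.05, 7.95 and 8.25 in WT hearts. KO lungs were all above WT lungs, and the hearts overlapped. Its organ difference was 0.74 (SE 0.21, unadjusted p = 0.00839). Oas2, a sensor of double-stranded RNA, had 0.73, also with all KO mice above all WT mice, though not after centring. Ifih1 and Oasl2 had 0.76 and 0.75 with overlap, or 0.17 and 0.34 without mouse 1602. In 3 members all KO mice lay above WT mice (9.68%) and in 1 below (3.23%), against 7.56% and 3% of all genes.

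Glucocorticoid-responsive genes had a median organ difference of 0.26 over 19 members, and their median KO effect was -0.44 in lungs and -0.62 in heart. The median organ difference was 0.19 after quantile normalization and 0.05 without mouse 1602. Circadian clock genes had a median of 0.24 over 14 members, with 0.08 after quantile normalization and 0.12 without mouse 1602. Per2, a repressor in the clock, read 7.44, 7.55 and 8.32 in KO lungs and 7.80, 7.99 and 8.24 in WT lungs. In heart it read 5.13, 4.98 and 6.45 in KO and 6.41, 6.44 and 7.08 in WT. Lungs minus heart did not overlap between genotypes, and the organ difference was 0.88 (SE 0.26, unadjusted p = 0.00908). Hearts 1602 and 1603 were the low ones. Ciart, another clock repressor, had 0.96 with overlap (0.47 without mouse 1603). The hour at which each mouse was taken is not stated in the labels.

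Groups close to the known functions of NM1 had medians whose sign or size changed with the scaling or with mouse 1602. RNA polymerase I and its factors had 6 members above and 6 below 0, with a median of 0.03 as deposited, -0.04 after quantile normalization, -0.20 after centring and -0.23 without mouse 1602, where 9 of 12 were below 0. The largest was Taf1a, a subunit of the selectivity factor, at 0.43, with all KO mice above all WT mice as deposited but not after quantile normalization. Rrn3, which recruits the polymerase, had -0.33 with overlap, and -0.04 without mouse 1586. Ribosome biogenesis factors had 24 of 42 members above 0 and a median of 0.04, which was -0.08 after quantile normalization, -0.19 after centring and -0.12 without mouse 1602. In 3 members all KO mice lay above all WT mice (7.14%, against 7.56% of all genes) and in 2 below (4.76%, against 3%). After quantile normalization there were 0 above and 4 below (9.52%, against 6.68%). Rrp1b and Bop1, nucleolar factors of the large subunit, had 0.49 and 0.41 and were among those above as deposited but not after quantile normalization.

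Chromatin remodelling factors and NM1 partners had 14 of 23 members above 0, with a median of 0.15 as deposited, 0.04 after quantile normalization, -0.07 after centring and 0.03 without mouse 1602. Smarcd2, a subunit of the SWI/SNF remodeller, had the largest value. Its lungs minus heart was 3.15, 2.46 and 2.84 in KO mice and 2.43, 2.25 and 1.80 in WT mice, just apart, for an organ difference of 0.66 (SE 0.28, unadjusted p = 0.0448). Among class I myosins, Myo1d and Myo1e had 0.44 and 0.18 and Myo1f had -0.44, all with overlap. Without mouse 1602 Myo1d had 0.06, and the sign of Myo1e turned to -0.04 after centring.

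Actin regulators had 22 of 31 members above 0, with a median of 0.16, against 0.13 after quantile normalization, 0.03 without mouse 1602 and -0.06 after centring. In 5 of them all KO mice lay above all WT mice, 16.1% against 7.56% of all genes. After centring 3 lay above and 3 below (9.68% each), against 3.71% and 13.1% of all genes. Flna, filamin A, which links actin filaments into networks, read 8.78, 9.28 and 9.04 in KO lungs and 9.04, 9.34 and 9.31 in WT lungs. KO hearts had 6.17, 6.95 and 6.83, and WT hearts had 7.60, 7.40 and 7.96. The hearts were apart and the lungs overlapped, and the organ difference was 0.81 (SE 0.25, unadjusted p = 0.013). Vasp, which extends actin filaments, had 0.66, and 0.38 without mouse 1602.

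The unfolded protein response of the endoplasmic reticulum had 13 of 22 members below 0 and a median of -0.12, with -0.14 after quantile normalization and -0.20 without mouse 1602, which turned to 0.05 without mouse 1586. Manf and Atf6, a secreted stress factor and a stress sensor, had -0.43 and -0.40, both with overlap. Only Hspa5, the main chaperone of the endoplasmic reticulum, had all KO mice below all WT mice, at -0.35, and 1 of 22 (4.55%) is near the 3% of all genes. Heat shock chaperones had 13 of 18 members below 0 and a median of -0.11, with none apart (-0.08 after quantile normalization, -0.03 without mouse 1602). Glycolysis had 11 of 18 above 0 and a median of 0.06, which was 0.07 after quantile normalization, 0.10 without mouse 1602 and -0.16 after centring. Endothelial markers had 17 of 23 above 0 and a median of 0.12, which was 0.05 after quantile normalization, -0.10 without mouse 1602 and -0.11 after centring.

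**Figure D5:**
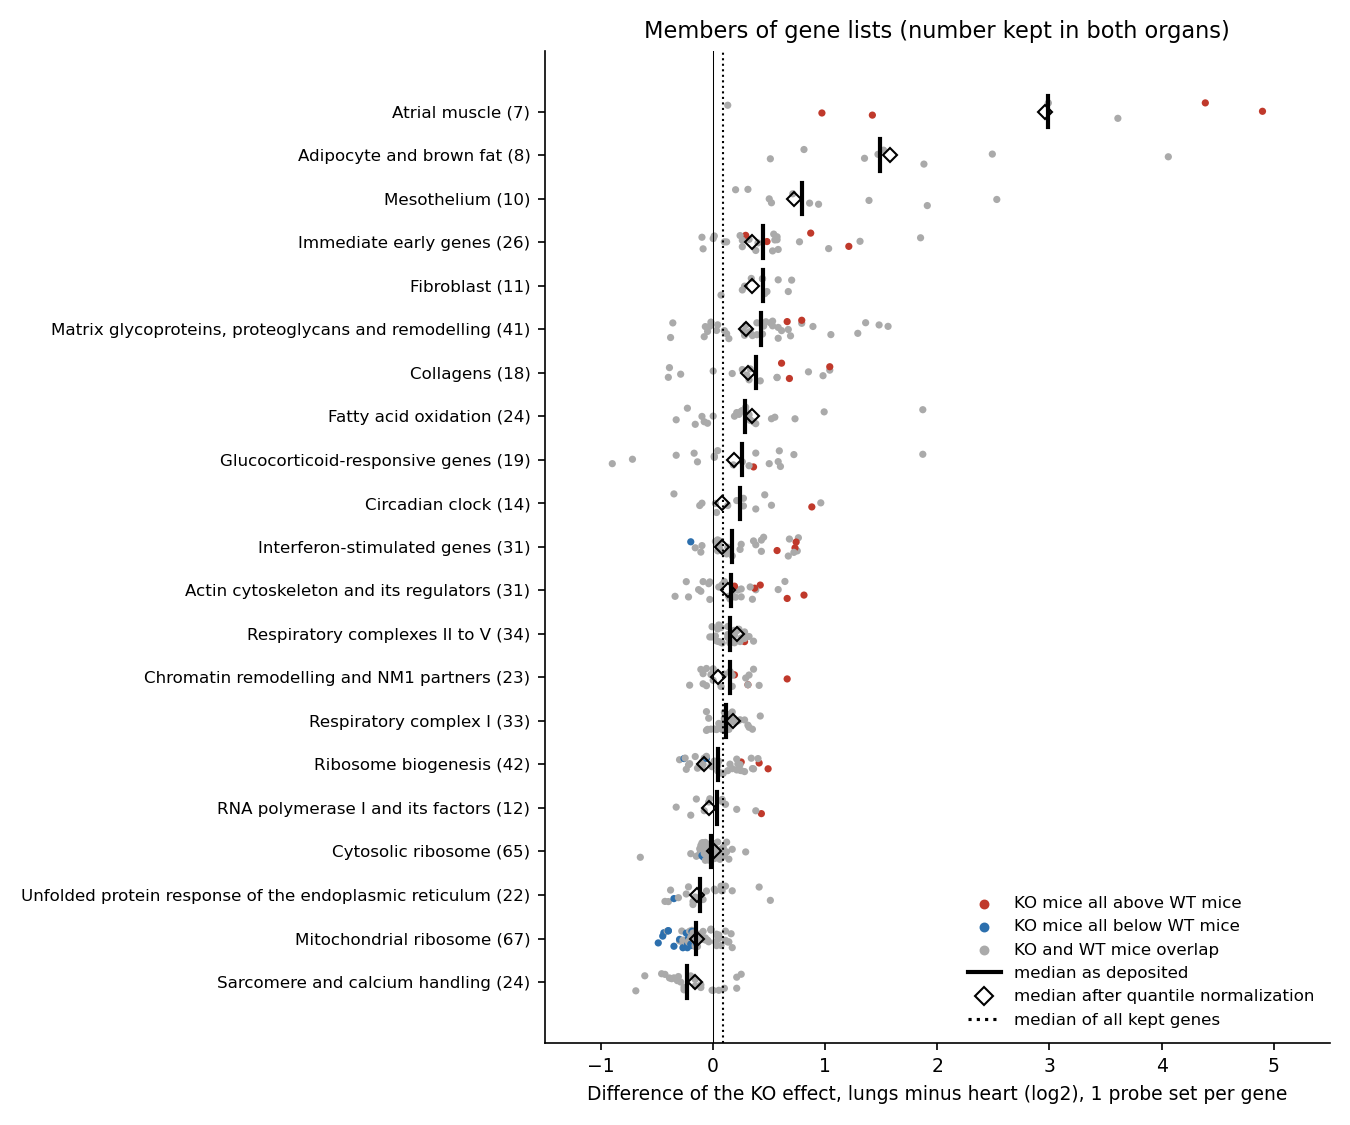
Each point is the organ difference (log2) of 1 gene, by list, coloured where all KO mice lay above or below all WT mice, with the list median as deposited (bar) and after quantile normalization (diamond). The atrial, fat cell and mesothelial lists lie furthest to the right, and the mitochondrial ribosome holds 16 genes with KO mice all below WT mice.

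Among single genes with the genotypes apart and an unadjusted p under 0.05, the largest positive organ differences after the atrial light chains were in genes of various functions. Itih5, a stabiliser of hyaluronan, had 2.51 and was below WT in all KO hearts. Scd1 and Fasn, enzymes of fatty acid synthesis, had 2.17 and 1.65, and 0.99 and 0.96 without mouse 1593. Ppbp, a platelet chemokine, had 1.91, Slpi, a protease inhibitor of mucosa, 1.87, and Cxcl13, a B cell chemokine, 1.85. KO hearts averaged 3.439 at this Cxcl13 probe set, below the filter value, so that it was compared only because of its WT level in heart. The antibody segment Igkj1 had 1.78, Ugt1a6a, a detoxifying transferase, 1.72, and Aebp1, a collagen-binding matrix protein, 1.71. Without mouse 1602 Ugt1a6a had 0.88, without mouse 1592 Slpi had 1.03 and Ppbp 1.26, and without mouse 1586 Cxcl13 had 1.20. The KO effects of these genes were between -0.05 and 0.78 in lungs and between -1.88 and -0.86 in heart, so that in these probe sets the heart held the larger part. The second probe sets of Cxcl13 and Scd1 had organ differences of 0.84 and 2.09, with larger parts in lungs (0.83 and 1.19).

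The largest negative organ differences were mostly higher in KO hearts. Rtn4rl1, a receptor relative of the Nogo system, read 4.15, 4.29 and 4.09 in KO lungs and 4.36, 4.72 and 4.81 in WT lungs. In heart it read 4.55, 5.32 and 5.18 in KO and 3.93, 4.22 and 4.26 in WT. It was thus below WT in all KO lungs and above WT in all KO hearts. Its organ difference was -1.34 (SE 0.25, unadjusted p = 0.000746, adjusted p = 0.714 with limma), and its second probe set had -0.59, also with the genotypes apart.

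Hhip, an inhibitor of hedgehog signalling linked to lung structure, differed mainly in lungs. It read 5.20, 5.39 and 4.86 in KO lungs and 5.58, 6.44 and 6.87 in WT lungs, where all KO values lay below all WT values. Its heart levels, 4.14, 4.69 and 4.48 in KO and 3.98, 3.95 and 4.65 in WT, overlapped. The organ difference was -1.39 (SE 0.31, unadjusted p = 0.00189).

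Osbpl3, an oxysterol-binding protein, read 8.05, 8.30 and 8.13 in KO hearts and 7.57, 7.19 and 7.38 in WT hearts, and its lungs overlapped, for an organ difference of -1.11 (SE 0.25, unadjusted p = 0.00216). The second Osbpl3 probe set differed by -0.91 in lungs and -0.28 in heart, with an organ difference of -0.63 and overlap. Klhl29, of the kelch-like family, had -1.07, Adgrg6, an adhesion receptor, -1.35, and Sema3e, a guidance ligand, -1.22 (-0.72 without mouse 1586). Hnrnpab, an RNA-binding protein, had -1.62 at 1 probe set, where KO heart 1602 read 6.62 and all of the other 5 hearts lay between 3.21 and 4.05. The other 4 Hnrnpab probe sets had values from -0.40 to 0.34. WT hearts averaged 3.452 for Klhl29, 3.627 for Sema3e and 3.455 for the Hnrnpab probe set with -1.62, all below the filter value. These probe sets were thus compared only because of their KO level in heart. Sfi1, a centrosome protein, had -1.26 and Pphln1, a silencing factor, -1.25, and both had other probe sets with positive values. Without mouse 1602 Sfi1 had -0.56 and Hnrnpab -0.87. Strbp and Pgm2l1 had -1.06 and -1.04, each also with other probe sets of positive sign.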

How the data were processed

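Transcript levels were measured on Affymetrix arrays. The table deposited by the authors gives log2 signals by probe set and array, made with Partek 6.4 per the submitters' processing notes. Not given in the sources used here are the background correction, probe summary and normalization. Detection calls do not come with the table, and precision is limited by the number of arrays.

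The values were used as deposited. Of 45141 entries, 104 controls were set aside. Probe sets were kept when their mean lay above the table median in lungs and in heart. Genes came from the platform annotation, with 14733 symbols updated by gene number through RefSeq (GRCm38.p6), and 340 kept probe sets with several genes and 5266 with none were left unnamed. The mouse number of the labels paired lungs with heart. The difference lungs minus heart was computed per mouse and compared between 3 KO and 3 WT mice with limma 3.58.1 in R 4.3.3 (4 residual and 4.02 prior degrees of freedom). The KO effects in each organ came from a limma fit of 6 group means to all 16 arrays (10 residual and 3.63 prior degrees of freedom), which treats lungs and heart of 1 mouse as separate samples. Two-sided p-values were adjusted over all 20365 kept probe sets (Benjamini-Hochberg), and an adjusted p under 0.05 was called. For the organ difference, these p-values rest on the spread between the 6 mice. Those for the KO effect in each organ rest on a spread that also includes the 4 fibroblast samples, from other mice. Deviations of lungs and heart of the same mouse from their group means correlated with r from 0.0397 to 0.206. For mice 1602 and 1603 the lungs correlated more with the heart of another mouse (r = 0.0745 and 0.15) than with their own (r = 0.0397 and 0.0532).

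The 44 gene lists with 1102 members were described by counts and medians, with 1 probe set per gene (the highest mean). Members and lists were chosen with earlier results of these data known. Genes were named by rule: all Myo1c probe sets, called probe sets, up to 12 per direction with the largest organ difference among those with genotypes apart and an unadjusted p under 0.05, and up to 4 per described list. Alternatives were quantile normalization, centring, no or a stricter filter, fits without the mouse as a block or with it as a random block, a trend in the variance, and leaving out mice. Both fits were tested on simulated data.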

Additional observations from a re-analysis of the deposited data

Results flagged for a closer look

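Rtn4rl1, probe set 1455664_PM_at, was below WT in all 3 KO lungs and above WT in all 3 KO hearts. Its organ difference was -1.34 (limma unadjusted p = 0.000746, adjusted p = 0.714), which did not pass the test over the 20365 probe sets. Rtn4rl1 was flagged for this opposite separation, so the share of probe sets that show it lends the gene no support. That share was 0.0737%, and 0.314% the other way round. The second probe set, 1436868_PM_at, had -0.59.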

How the results depend on the processing

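The organ difference is paired by mouse, so its fit holds the mouse as a block. With no replicate block 0 probe sets were called, on 12 arrays (1025 at an unadjusted p under 0.05) and on 16 arrays (1253), and 0 with a random block (1142). Quantile normalization, centring, no filter, a stricter filter, a variance trend, 1 probe set per gene and leaving out any 1 mouse also gave 0 calls, with smallest adjusted p from 0.303 to 1. Without KO 1603, KO 1586 and WT 1592, chosen with earlier results of these data known, 3803 were called (limma smallest adjusted p 0.0192), with 1 KO mouse, 1602, against 2 WT mice and 1 residual degree of freedom, so that the lone KO mouse is assumed to vary like WT. Calls in lungs, 3 as reported, were 8 after centring, 0 under the stricter filter, and 0 to 49 leaving out 1 mouse (49 without 1602, 6 without 1624, 1 without 1593, 0 without 1603, 1586 or 1592). Calls in heart, 7 as reported, were 3 after quantile normalization, 0 under the stricter filter, 2 on the 12 arrays alone, and 1 to 422 leaving out 1 mouse (422 without 1603, 18 without 1586, 13 without 1624, 2 without 1602 or 1593, 1 without 1592). For 119 named probe sets, 1696 of 1724 alternative values kept their sign. Fam107a turned to -0.30 after quantile normalization, -0.18 after centring and -0.30 without the 3 mice, and ran from -0.12 (without 1592) to 0.29 leaving out 1 mouse, with -0.02 without 1586 and -0.05 without 1624. After centring Myo1e was -0.04, Ttf1 -0.01 and Fech -0.05. Without the 3 mice Myo1c 1419648_PM_at was 0.18, Rrn3 0.01, Cpt1b -0.92, Hadhb -0.05, Ppara -0.23, Ndufb8 -0.02, Cox5a -0.02, Cyc1 -0.25, Cidea -0.37, Cox8b -1.35, Fech -0.02 and Lum -0.22. Leaving out 1 mouse, Ttf1 ran from -0.33 (without 1602) to 0.64, Tcap from -1.75 to 0.94, Actc1 from -1.47 to 0.64, Tnnc1 from -1.37 to 0.99 and Tnnt2 from -1.43 to 1.19, each sarcomere gene above 0 without 1602; Tnnc1 was 0.23 and Tnnt2 0.21 without 1592. The cause of these changes was not tested.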

Other observations

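Myo1c lies on chromosome 11 in RefSeq's GRCm38.p6. Of the compared genes with a chromosome, 8.37% share it. Counting genes with any compared probe set and leaving out Myo1c, those with all KO mice below WT mice shared it in 41 of 399 cases (10.3%) and those with all KO mice above in 85 of 1010 (8.42%), against that background. Among the genes named for the largest organ differences it was 4 of 12 higher (33.3%), Myl7, Myl4, Aebp1 and Fasn, and 3 of 11 lower besides Myo1c (27.3%), Hnrnpab, Rtn4rl1 and Sfi1. Xaf1 and Ndel1, 2 of the 5 genes called in an organ (40%), lie on it too. These few genes were picked for their size, and no test was made of the share.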
